A study of Mus musculus with 16 samples.

Results

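Antiviral effectors are genes whose products block a step in the growth of a virus inside a cell. Not every gene followed here has such a direct action. Under that heading, 43 genes outside the Oas, Ifit and Gbp families were followed. They were chosen with earlier results of these data known, so counts of them called are not an independent test. Each was found by its symbol in the GENCODE M21 annotation. All 43 symbols matched an Ensembl identifier in the count files, and the files list 54838 genes in all. The cells were macrophages grown from mouse bone marrow in L929-conditioned medium, with B6.129P2-Apoetm1Unc/J (lacking apolipoprotein E) as the genotype label and C57BL/6J as the strain label. Every group carried this genotype, and each of the 4 groups had 4 RNA-seq libraries. The TMP195+TNFα cells received TMP195, an inhibitor of class IIa histone deacetylases, at 5 µM for 1 h before 24 h with 50 ng/ml TNFα. The TPCA-1+TNFα cells received TPCA-1, an inhibitor of the kinase IKK2, at 500 nM on the same schedule, the TNFα cells had the cytokine without an inhibitor, and the DMSO cells had the solvent. The labels do not say whether the cells given TNFα alone also received DMSO, no library had an inhibitor without TNFα, and nothing says that replicates came from separate animals or cultures, so p-values measure only the spread between these libraries.

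Most of these genes are interferon-stimulated. A type I interferon binds its receptor at the cell surface, the kinases JAK1 and TYK2 phosphorylate STAT proteins, and these join IRF9 to form a complex that binds a promoter element called the ISRE. TNFα acts through IKK2 and NF-kB, and macrophages are known to make a little interferon-β after TNFα or at rest, which keeps such genes at a low steady level. The products fall into roles: a ubiquitin-like modifier and its enzymes, direct inhibitors of viral entry or replication, TRIM ligases and components of PML nuclear bodies, ADP-ribosyltransferases, and a mixed remainder.

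Promoter sequence was available for 33 of the 43 genes in RefSeq windows of build GRCm38.p6, each running from 250 bases before to 50 bases after an annotated start. The ISRE core was searched as GAAA, any 2 bases and GAAA again, on either strand. These letters occurred in the windows of 12 of the 33 genes (36.4%), against 4.05% of the 9289 tested genes with a window. Counted by window, they occurred in 13 of the 45 windows of these genes (28.9%), against 3.44% of all 32851 windows. The letters of the GAS core, TTCNNNGAA on either strand, occurred in 5 of the 33 (15.2%), against 8.17% of tested genes, and the NF-kB consensus occurred in 4 (12.1%), against 12.1% of tested genes. ISRE and GAS matches overlapped in 3 windows, those of Bst2, Ifitm3 and Shisa5. A match is only a run of letters and not a mapped binding site, and no match says only that these letters are absent from the window. The lines below give the 150 bases before the start, written 5′ to 3′ on the strand of the gene with ISRE cores in capitals. Isg15, Rsad2, Ddx60 and Trim30d are shown as genes with a core and a large fall under TPCA-1. Cmpk2 and Ifi44 fell further with no core in the window, and Lap3 was not called.
Isg15, chr4:156200819-156200968, minus strand: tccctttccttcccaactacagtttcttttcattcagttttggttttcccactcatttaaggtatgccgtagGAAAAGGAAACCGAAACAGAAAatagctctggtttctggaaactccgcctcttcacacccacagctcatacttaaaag
Rsad2, chr12:26456453-26456602, minus strand: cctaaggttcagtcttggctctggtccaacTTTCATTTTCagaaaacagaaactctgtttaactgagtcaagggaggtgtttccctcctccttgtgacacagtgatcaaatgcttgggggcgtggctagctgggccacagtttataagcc
Ddx60, chr8:61927937-61928086, plus strand: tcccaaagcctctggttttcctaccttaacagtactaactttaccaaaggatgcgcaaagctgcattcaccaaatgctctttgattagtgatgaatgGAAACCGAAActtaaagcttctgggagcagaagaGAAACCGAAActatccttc
Trim30d, chr7:104507850-104507999, minus strand: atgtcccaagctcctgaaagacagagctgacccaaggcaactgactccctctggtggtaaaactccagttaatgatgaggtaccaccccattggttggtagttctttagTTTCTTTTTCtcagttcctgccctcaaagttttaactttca
Cmpk2, chr12:26469065-26469214, plus strand: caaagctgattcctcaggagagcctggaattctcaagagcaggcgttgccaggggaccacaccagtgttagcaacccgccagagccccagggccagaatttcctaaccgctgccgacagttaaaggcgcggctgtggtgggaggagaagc
Ifi44, chr3:151749911-151750060, minus strand: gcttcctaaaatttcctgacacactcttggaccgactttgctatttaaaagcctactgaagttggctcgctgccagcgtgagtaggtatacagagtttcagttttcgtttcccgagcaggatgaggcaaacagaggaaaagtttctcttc
Lap3, chr5:45493224-45493373, plus strand: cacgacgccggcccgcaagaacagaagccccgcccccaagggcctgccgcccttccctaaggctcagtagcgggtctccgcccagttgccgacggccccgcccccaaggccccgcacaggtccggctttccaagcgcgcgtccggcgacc
Isg15 held 3 cores in these bases, the last of them ending 57 bases before the start and each sharing letters with its neighbour. Ddx60 held 2 separate cores, and Rsad2 and Trim30d each held 1, on the other strand.

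In units of 1e6, the libraries held 7.489 to 31.6 counted reads. Library 2 of TPCA-1+TNFα was the shallowest and its unmapped share was 44.02%, while the 15 others had 4.003% to 7.115%. A floor of 3 reads stood for 0.09852 to 0.4051 counts per 1e6 counted reads (CPM), which covers counting error only. Ifi44l had 0 reads in all 16 libraries and was not tested, and the other 42 genes passed the filter on low counts. The macrophage markers were abundant, with a summed level of 12200 to 17300 CPM in TMP195+TNFα, 12500 to 20400 CPM in TPCA-1+TNFα, 17200 to 25100 CPM in TNFα and 15900 to 24800 CPM in DMSO. In bulk RNA, fewer cells of a type and less RNA per cell cannot be told apart.

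The antiviral genes were already expressed in DMSO cells. Per kilobase of exon, the highest mean level among them in DMSO was that of Ifitm3, which blocks fusion of viruses with endosomes, at 1722 CPM per kilobase. Bst2, or tetherin, which holds budding particles at the cell surface, came next at 363 CPM per kilobase, and Herc6 was lowest at 1.93 CPM per kilobase. With TPCA-1 the order at the top was still Ifitm3 (215 CPM per kilobase) and then Bst2 (98.8), but Mx2 (0.0871) and Ifi44 (0.113) were the lowest of the 42. Levels in this paragraph are the only ones set between genes.

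TPCA-1 lowered nearly the whole set. Against TNFα alone, 40 of the 42 tested genes were lower in TPCA-1+TNFα at an adjusted p under 0.05, where 9.72% of all 12612 tested genes were lower, and 1 was higher, where 9.67% of all were. The median log2 fold change over the 42 was −2.06, beside 0.02 over all tested genes. All 4 TPCA-1+TNFα libraries lay below all 4 TNFα libraries for 39 of the 42 genes, against 9.75% of tested genes, and above them for 1, against 8.71%. Without library 2 of TPCA-1+TNFα the count of lower genes was also 40.

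**Figure D1:**
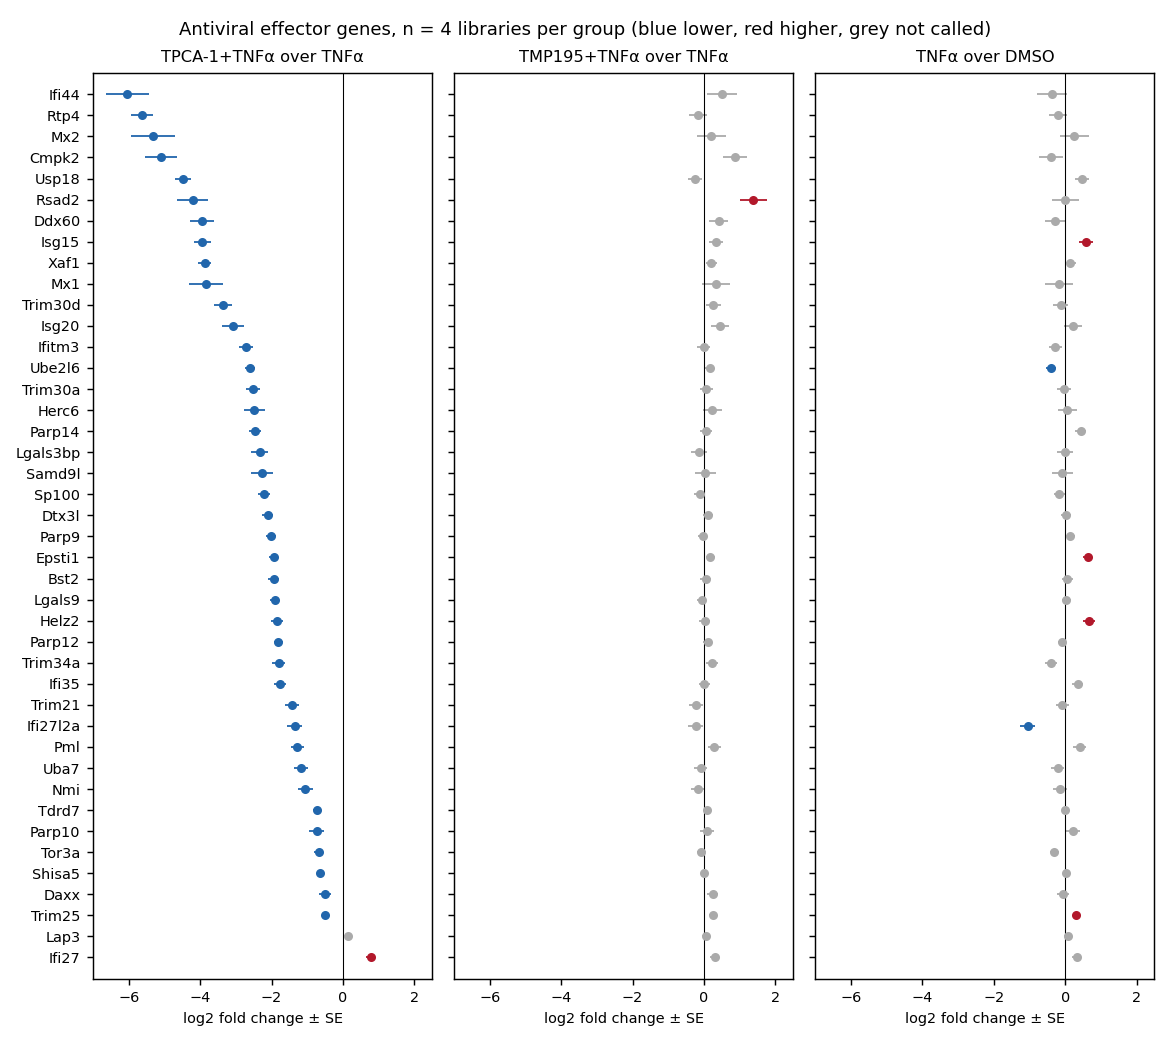
Log2 fold change ± SE of the 42 tested genes in 3 comparisons, ranked from top to bottom by the change of TPCA-1+TNFα over TNFα, with 4 libraries per group. Blue marks genes called lower, red genes called higher and grey genes not called. The left panel runs from −6.05 for Ifi44 to 0.77 for Ifi27, while the middle panel has 1 called gene, Rsad2, and the right panel has 6.

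ISG15 is a small protein joined to other proteins as ubiquitin is. All 5 genes of its cycle fell under TPCA-1 (9.72% of all tested genes), with a median log2 fold change of −2.61. Isg15 itself had 4.88, 5.81, 3.71 and 4.71 CPM in TPCA-1+TNFα libraries 1 to 4, against 77.4, 49.8, 81.3 and 79.2 CPM in TNFα. The groups did not overlap, and the log2 fold change was −3.94 ± 0.23 (SE, adjusted p = 4.14e-09), a level 15.3-fold lower. Usp18, the protease that takes ISG15 off its targets and also restrains the interferon receptor, had 8.21, 4.32, 6.09 and 6.41 CPM in TPCA-1+TNFα, against 165, 117, 140 and 151 CPM in TNFα. Its fall was the steepest of the 5, at −4.48 ± 0.23 (adjusted p = 9.29e-10), with every TPCA-1+TNFα library far below every TNFα library. The conjugating enzyme Ube2l6 had 22.9, 18.5, 25.8 and 23.2 CPM in TPCA-1+TNFα, against 146, 123, 137 and 150 CPM in TNFα. That was a 6.11-fold lower level (−2.61 ± 0.15, adjusted p = 2.29e-09), again without overlap. Herc6, the main ISG15 ligase of the mouse, changed by −2.49 ± 0.30, and the activating enzyme Uba7 changed least, by −1.17 ± 0.19.

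All 10 genes grouped as direct inhibitors of viruses fell under TPCA-1 (9.72% of all tested genes). Their median of −3.46 was the lowest of the 6 roles. Mx2, an interferon-induced dynamin-like GTPase, had 0.733, 0.135, 0.148 and 0.243 CPM in TPCA-1+TNFα, against 21.1, 8.73, 15.9 and 10.9 CPM in TNFα. These TPCA-1+TNFα levels rest on 15, 1, 3 and 5 reads, so libraries 2 and 3 were at or under the floor of 3 reads, and the annotation lists Mx2 as a polymorphic pseudogene. The log2 fold change was −5.33 ± 0.61 (adjusted p = 9.23e-06). Its neighbour Mx1, whose product is known to be defective in C57BL/6 mice, changed by −3.84 ± 0.48. Cmpk2, a mitochondrial nucleotide kinase, had 1.42, 0.945, 1.88 and 0.972 CPM in TPCA-1+TNFα, against 60.8, 41.2, 47.3 and 38.3 CPM in TNFα. The gap between the groups was wide, with a log2 fold change of −5.11 ± 0.44 (adjusted p = 4.09e-07).

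Rsad2 encodes viperin, which turns a nucleotide into a chain terminator for viral polymerases. It lies head to head with Cmpk2 on chromosome 12, with 12751 bases between them (Rsad2 at 26442746 to 26456452 on the minus strand, Cmpk2 at 26469204 to 26479837 on the plus strand, GRCm38). Rsad2 had 9.77, 13, 7.47 and 9.47 CPM in TPCA-1+TNFα, against 242, 192, 171 and 117 CPM in TNFα. The level was 18.5-fold lower (−4.21 ± 0.44, adjusted p = 3.62e-06), and no library of one group came near the other group. Ddx60, a helicase linked to sensing of viral RNA, had 2.64, 1.08, 3.07 and 2.48 CPM in TPCA-1+TNFα, against 50.2, 38.4, 36.3 and 28.1 CPM in TNFα. Its groups did not overlap either, with a change of −3.95 ± 0.34 (adjusted p = 3e-07). The exonuclease gene Isg20 changed by −3.08 ± 0.30, Ifitm3 by −2.72 ± 0.19 and the poxvirus restriction gene Samd9l by −2.27 ± 0.31. Bst2 (−1.94 ± 0.16) and the helicase gene Helz2 (−1.84 ± 0.17) fell least among the 10.

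All 8 TRIM and PML body genes were called lower (9.72% of all tested genes), with a median of −1.61 and a wide spread. The adjacent genes Trim30d (−3.36 ± 0.24) and Trim30a (−2.52 ± 0.20) fell most, and as close paralogs they keep only their uniquely mapped reads. Sp100, a component of PML bodies, changed by −2.21 ± 0.16, Trim34a by −1.79 ± 0.18, the cytosolic antibody receptor Trim21 by −1.43 ± 0.19 and Pml by −1.28 ± 0.18. The other two were among the smallest falls of the set. Trim25, the ubiquitin ligase that acts with the RNA sensor RIG-I, had 106, 101, 122 and 102 CPM in TPCA-1+TNFα, against 139, 150, 165 and 153 CPM in TNFα. The groups did not overlap and the change was −0.49 ± 0.10 (adjusted p = 0.00153). The histone chaperone gene Daxx changed by −0.51 ± 0.16 (adjusted p = 0.036). That call ended without library 1 or 3 of TPCA-1+TNFα or library 3 or 4 of TNFα (adjusted p up to 0.0786), and with the compared groups alone (0.07).

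All 5 genes of ADP-ribosylation were lower under TPCA-1 (9.72% of all tested genes), with a median of −2.01. Parp14 changed by −2.47 ± 0.17, and Dtx3l (−2.11 ± 0.16) and Parp9 (−2.01 ± 0.15), whose products work as a complex, fell by nearly the same amount. Those genes lie head to head on chromosome 16 and overlap by 682 bases. Parp12 changed by −1.81 ± 0.12. Parp10 had 9.77, 23, 10 and 12.1 CPM in TPCA-1+TNFα, against 20.3, 19.8, 24 and 24.7 CPM in TNFα. Only library 2 of TPCA-1+TNFα reached the TNFα range, and Parp10 shares exon bases with Plec on the same strand. Its change was −0.74 ± 0.20 (adjusted p = 0.017) with that library and −1.07 without it (adjusted p = 2.23e-05). The call ended without library 3 or 4 of TPCA-1+TNFα (adjusted p up to 0.0519), and with the compared groups alone (0.076).

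The genes named IFI, with Nmi, held both ends of the ranking. Ifi44, an interferon-induced protein of the cytoplasm, had 1.17, 0.27, 0.742 and 0.583 CPM in TPCA-1+TNFα, against 84.2, 44, 47.1 and 27.5 CPM in TNFα. The TPCA-1+TNFα levels stand on 24, 2, 15 and 12 reads, and 0.0317% of all tested genes had a more negative change than its −6.05 ± 0.60 (adjusted p = 1.94e-06). Ifi35 changed by −1.76 ± 0.16 and its binding partner Nmi by −1.05 ± 0.21. Ifi27l2a, a small hydrophobic relative of Ifi27, had 15.5, 12.7, 17.6 and 20.1 CPM in TPCA-1+TNFα, against 34.6, 33.5, 45.4 and 55.9 CPM in TNFα. That was a change of −1.35 ± 0.21 (adjusted p = 0.000219) without overlap.

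Ifi27 went the other way. It lies tail to tail with Ifi27l2a on chromosome 12, with 1927 bases between the genes, and had 47.6, 47.8, 51.8 and 43.4 CPM in TPCA-1+TNFα, against 24, 29.1, 33 and 25.3 CPM in TNFα. All 4 TPCA-1+TNFα libraries were above all 4 TNFα libraries, and Ifi27 was the 1 gene of the set that rose, by 0.77 ± 0.13 (adjusted p = 0.000538). The rise held in every alternative fit that was run.

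Of the 9 remaining genes, 8 fell (9.72% of all tested genes), with a median of −1.91 over the 9. Rtp4, a Golgi chaperone known to limit flaviviruses, had 13.1, 5.13, 7.77 and 9.47 CPM in TPCA-1+TNFα, against 560, 490, 405 and 352 CPM in TNFα. The lowest TNFα library stood far above the highest TPCA-1+TNFα library, and the level was 49.5-fold lower (−5.63 ± 0.31, adjusted p = 2.29e-09). Xaf1, which binds the apoptosis inhibitor XIAP, changed by −3.87 ± 0.17, the secreted glycoprotein gene Lgals3bp by −2.34 ± 0.23 and the galectin gene Lgals9 by −1.91 ± 0.13. Epsti1 had 44.6, 40.8, 53.9 and 36.6 CPM in TPCA-1+TNFα, against 179, 155, 175 and 169 CPM in TNFα, a change of −1.94 ± 0.12 (adjusted p = 6.98e-09) with no overlap. Tdrd7 (−0.74 ± 0.09), the torsin ATPase gene Tor3a (−0.68 ± 0.13) and Shisa5 (−0.65 ± 0.09) fell little but with small errors. Lap3, a leucine aminopeptidase named here after its values were seen, had 24.9, 27.3, 20.1 and 22.3 CPM in TPCA-1+TNFα, against 18.9, 23, 23.1 and 21.1 CPM in TNFα. Its groups overlapped and it was the 1 tested gene not called (0.13 ± 0.11, adjusted p = 0.439).

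**Figure D2:**
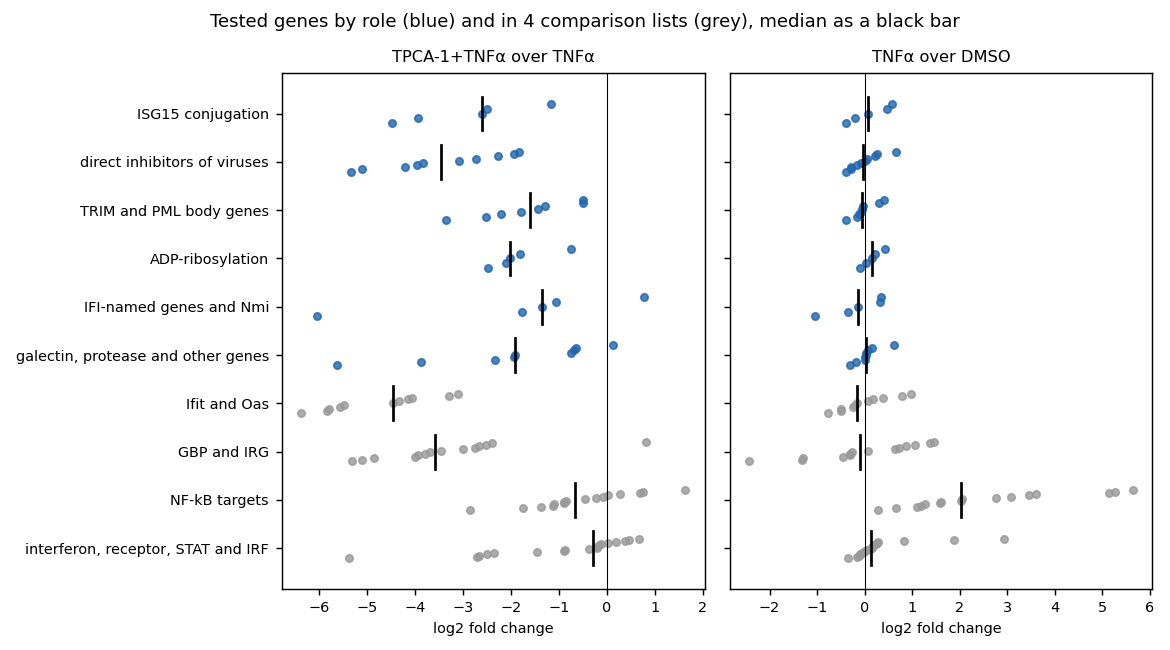
Log2 fold change of each tested gene, 1 point per gene, grouped by role (blue) and in 4 comparison lists (grey), with the median as a black bar. Under TPCA-1 the medians of the 6 roles lie between −3.46 for the direct inhibitors and −1.35 for the IFI genes, and under TNFα they lie near 0 while the NF-kB targets have a median of 2.04.

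The falls under TPCA-1 were set beside the presence of an ISRE core in the promoter window. The 12 genes with a core had a median log2 fold change of −2.23 under TPCA-1, with values from −4.21 to −0.65, and all 12 were called lower. The 20 tested genes with a window but no core had a median of −2.03, with values from −6.05 to 0.13, and 19 were called lower. Over all tested genes, 9.72% were lower. These medians describe the windows shown above and were not tested against each other.

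TPCA-1 took most of the set below its level in cells that had seen no TNFα. Against DMSO, 38 genes were lower in TPCA-1+TNFα, where 15.5% of all tested genes were lower, and 1 was higher, where 14.8% were. Rtp4 had 615, 613, 451 and 380 CPM in DMSO and was 56.4-fold lower in TPCA-1+TNFα (−5.82 ± 0.32, adjusted p = 1.38e-09). The gene that was higher was again Ifi27, with 20.2, 21.1, 25.7 and 22.3 CPM in DMSO and a change of 1.09 ± 0.13 (adjusted p = 1.04e-05). Its TPCA-1+TNFα libraries all lay above the DMSO libraries. The 3 genes not called were Trim25 (−0.18 ± 0.10, adjusted p = 0.164), Parp10 (−0.52 ± 0.20, adjusted p = 0.0614) and Lap3 (0.20 ± 0.11, adjusted p = 0.179). Parp10 was called without library 2 of TPCA-1+TNFα (−0.85, adjusted p = 9.08e-05).

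TNFα without an inhibitor left most of the set near its DMSO level. Against DMSO, 4 of the 42 genes were higher, where 10.9% of all tested genes were higher, and 2 were lower, where 12.4% were. The median log2 fold change was 0.00 over the 42 and over all tested genes. Libraries with the same replicate number deviated together between these groups, and a fit with replicate as a block had 9 genes higher (15.1% of all tested genes) and 4 lower (16.9%). Same-numbered pairs showed 11 genes higher in TNFα in all 4 (28.6% of all tested genes) and 11 lower in all 4 (29.2%). None of these shares stands far above that of all genes.

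Helz2 and Epsti1 rose most with TNFα. Helz2 had 68.5, 71.9, 80.7 and 99.4 CPM in TNFα, against 54.8, 54.6, 39.1 and 53.3 CPM in DMSO, and Epsti1 had 124, 107, 95.2 and 113 CPM in DMSO beside the TNFα values given above. Neither gene overlapped between the groups, with changes of 0.67 ± 0.16 (adjusted p = 0.00527) for Helz2 and 0.63 ± 0.12 (adjusted p = 0.000611) for Epsti1. Isg15 had 61.2, 45.7, 38.2 and 47.2 CPM in DMSO, and its TNFα libraries were higher except library 2, which lay within the DMSO range. Its change was 0.58 ± 0.19 (adjusted p = 0.0383), and 0.58 ± 0.16 with the replicate block (adjusted p = 0.00926). Fitted without the block, Isg15 was not called once library 1, 3 or 4 of TNFα was left out. The same held for library 2, 3 or 4 of DMSO (adjusted p up to 0.124 over these fits). Trim25 had 138, 117, 108 and 126 CPM in DMSO, just below its TNFα values, and rose by 0.31 ± 0.10 (adjusted p = 0.0242). The replicate block gave 0.31 ± 0.09 for Trim25 (adjusted p = 0.0158). Fitted without the block, its call ended once library 2 or 3 of DMSO or library 3 of TNFα was left out (adjusted p up to 0.0894). It also ended with no filter on low counts (0.0956). Fits that leave out a library of these groups break the pairing.

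Ifi27l2a and Ube2l6 fell with TNFα. Ifi27l2a had 75.5, 60.8, 100 and 115 CPM in DMSO, all above its TNFα values, and its change of −1.05 ± 0.20 (adjusted p = 0.000901) was called in every alternative fit. Ube2l6 had 215, 174, 152 and 187 CPM in DMSO, also all above TNFα, and changed by −0.39 ± 0.14 (adjusted p = 0.0456). With the replicate block it was still called (−0.39 ± 0.10, adjusted p = 0.00924). The Ube2l6 call ended in 12 of 23 alternatives, among them those without any 1 of the 4 TNFα libraries, library 1, 2 or 4 of DMSO, library 3 of TMP195+TNFα or library 1 or 4 of TPCA-1+TNFα (adjusted p up to 0.168). The replicate block added Usp18 (0.49, adjusted p = 0.0074), Parp14 (0.43, 0.00684), Pml (0.41, 0.0416), Ifi35 (0.35, 0.0498) and Ifi27 (0.31, 0.0202) to the genes that were higher. It added Trim34a (−0.38, adjusted p = 0.00956) and Tor3a (−0.30, 0.0406) to those that were lower.

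**Figure D3:**
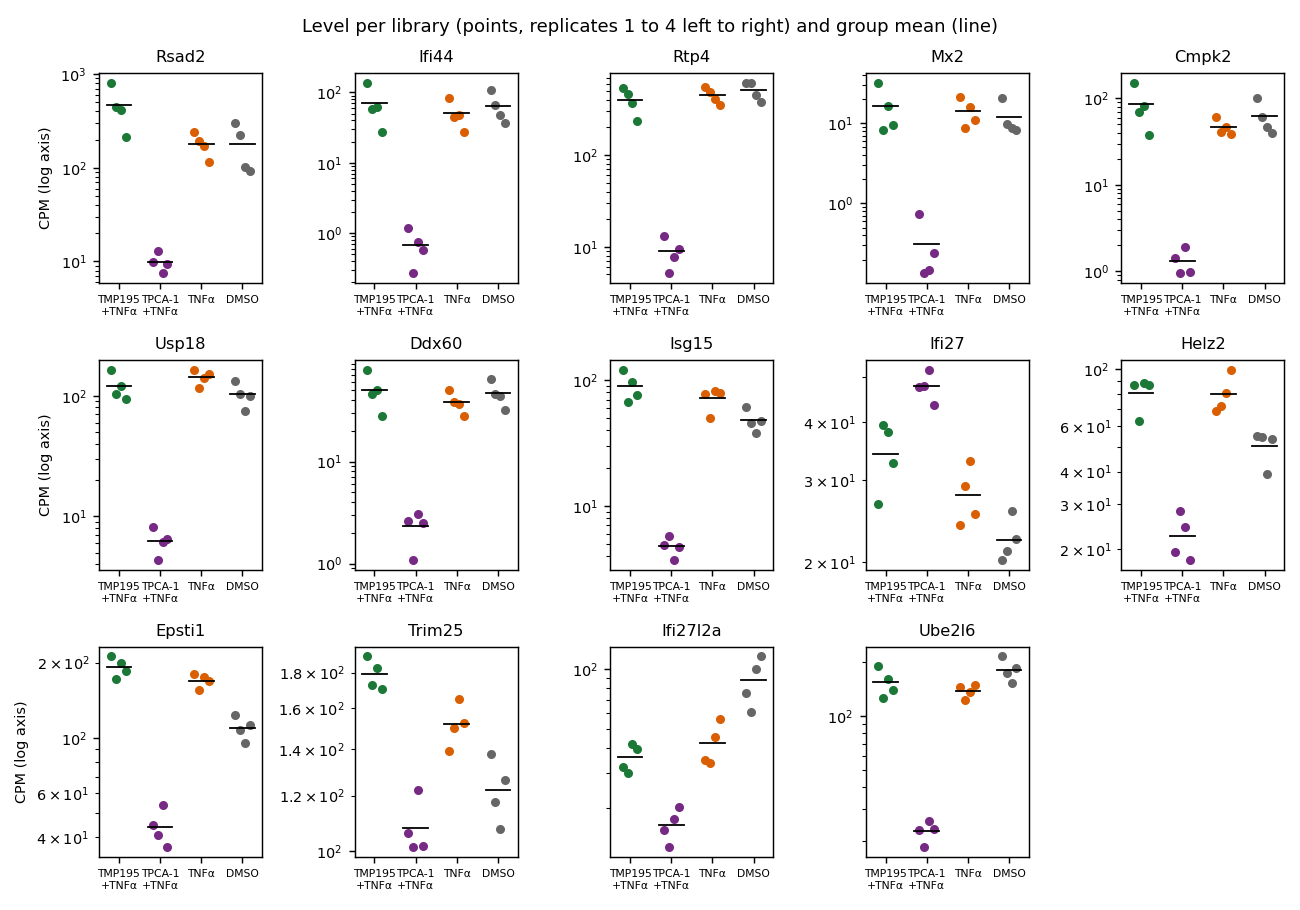
Level in every library of the 14 genes named by rule, in CPM on a log axis, with replicates 1 to 4 as points from left to right in each group and the group mean as a line. For Rsad2, Ifi44, Rtp4, Mx2, Cmpk2, Usp18, Ddx60 and Isg15 the TPCA-1+TNFα points sit far below the other 3 groups, and for Ifi27 they sit above.

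TMP195 raised 1 gene of the set, Rsad2, and lowered none that passed the test. Against TNFα alone, 1 of 42 genes was higher in TMP195+TNFα, where 2.95% of all tested genes were higher, and 0 were lower, where 3% of all were. The count of 0 came also from DESeq2 and from limma voom, and 0 genes were lower at an unadjusted p under 0.05 (8.8% of all tested genes), while 4 were higher (9.97%). The log2 fold change was above 0 for 30 of 42 genes, beside 52.6% of all tested genes, and its median was 0.08, beside 0.02. The genes shared deviations between replicates, so their signs are not independent, and the count of 30 was not tested. In same-numbered pairs, 12 genes were higher in all 4 (25.2% of all tested genes) and 5 were lower in all 4 (23.1%). Trim25 was the 1 gene with all 4 TMP195+TNFα libraries above all 4 TNFα libraries (8.02% of all tested genes), with 190, 173, 183 and 170 CPM in TMP195+TNFα against 139, 150, 165 and 153 CPM in TNFα, and was not called (0.24 ± 0.10, adjusted p = 0.168). Same-numbered libraries deviated together here too, and with the replicate block 3 genes were higher (6.91% of all tested genes) and 0 were lower (6.56%).

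Rsad2 was the gene called. It had 809, 442, 414 and 212 CPM in TMP195+TNFα, against 242, 192, 171 and 117 CPM in TNFα. The lowest TMP195+TNFα library fell inside the TNFα range, yet each library was above the TNFα library of the same number, by 3.35-, 2.30-, 2.42- and 1.82-fold. The change was 1.38 ± 0.38 (adjusted p = 0.0405), or 2.6-fold, and 1.29 ± 0.22 with the replicate block (adjusted p = 0.000966). Without the block the call ended when any 1 of 8 of the 16 libraries was left out. The largest adjusted p, 0.151, came without library 1 of TMP195+TNFα, where the change was 0.98. That fit kept library 1 of TNFα, so it breaks the pairing. The other 7 libraries were library 2 or 3 of TMP195+TNFα, any of the 4 of TNFα, and library 4 of TPCA-1+TNFα.

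The next in rank was Cmpk2, the neighbour of Rsad2. Cmpk2 had 152, 68.9, 82 and 38 CPM in TMP195+TNFα, against 60.8, 41.2, 47.3 and 38.3 CPM in TNFα, so 3 of 4 same-numbered pairs were higher and the last stood at 0.993-fold. It was not called without the block (0.86 ± 0.33, adjusted p = 0.152) and was called with it (0.73 ± 0.18, adjusted p = 0.0125). Without the block Cmpk2 was called in 2 alternatives, with no filter on low counts (0.85, adjusted p = 0.0471) and without library 4 of TMP195+TNFα (1.11, adjusted p = 0.0431). Its change was 0.42 (adjusted p = 0.548) without library 1 of TMP195+TNFα. The fits that leave out a library break the pairing. Isg20 had 24.3, 12.6, 16.6 and 13.7 CPM in TMP195+TNFα, against 16.7, 8.43, 12.3 and 12 CPM in TNFα. It was higher in all 4 pairs and was called with the block (0.43 ± 0.14, adjusted p = 0.0462) but not without it (0.45 ± 0.25, adjusted p = 0.373). Ifi44 (0.49 ± 0.42), Ddx60 (0.41 ± 0.27), Mx1 (0.34 ± 0.39) and Isg15 (0.33 ± 0.19) followed and were not called. Without library 1 of TMP195+TNFα, but with library 1 of TNFα kept, these changes were −0.04 for Ifi44, 0.10 for Ddx60, −0.23 for Mx1 and 0.14 for Isg15. That fit breaks the pairing, and replicate 1 was high in both groups, so it cannot decide the direction. In same-numbered pairs, Ifi44 stood at 1.63-, 1.33-, 1.32- and 0.993-fold and Mx1 at 1.77-, 1.03-, 1.13- and 0.762-fold. The lowest values were those of Usp18 (−0.25 ± 0.19) and Ifi27l2a (−0.24 ± 0.20).

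**Figure D4:**
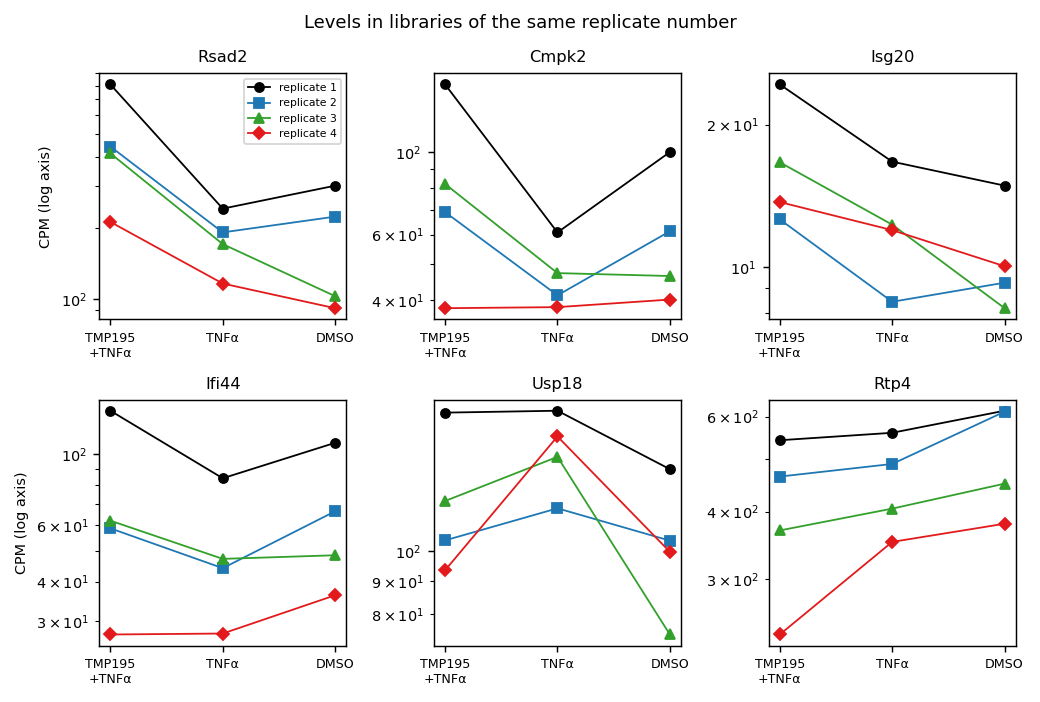
Level in CPM on a log axis of 6 genes in TMP195+TNFα, TNFα and DMSO, with lines joining libraries of the same replicate number. Replicate 1 is the highest line for all 6 genes, Rsad2 and Isg20 are higher in TMP195+TNFα than in TNFα on all 4 lines, and Usp18 and Rtp4 are lower on all 4.

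By role, the median change with TMP195 was largest for the direct inhibitors, at 0.27. Of their values, 9 of 10 were above 0, beside 52.6% of all tested genes. In the pair of libraries 4, however, Mx1 (0.762-fold), Bst2 (0.84), Mx2 (0.865), Helz2 (0.872), Samd9l (0.956) and Cmpk2 (0.993) were lower. Rsad2 (1.82-fold), Isg20 (1.15) and Ifitm3 (1.09) were higher in that pair, and Ddx60 had 28.1 CPM in each library of it. The median was 0.23 for the TRIM and PML body genes, 0.15 for ISG15 conjugation, 0.08 for ADP-ribosylation, 0.01 for the IFI genes and 0.00 for the remainder. Across same-numbered pairs, 12 genes were higher in TMP195+TNFα in all 4, where 25.2% of all tested genes were, and 5 were lower in all 4, where 23.1% were. The 12 were Rsad2, Isg20, Ddx60, Trim25, Trim30d, Trim34a, Pml, Daxx, Ifi27, Xaf1, Tdrd7 and Epsti1. Ddx60 is counted on a difference in the pair of libraries 4 that is lost on rounding. The 5 were Usp18, Trim21, Ifi27l2a, Nmi and Rtp4. Of all these genes, only Rsad2 passed the test without the block.

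The antiviral genes differed between replicates in a shared way. In TMP195+TNFα, TNFα and DMSO alike, replicate 1 was the highest library for 24 of the 42 genes, against 6.46% of all tested genes. Ifi44, for instance, had 137, 58.7, 62 and 27.3 CPM in TMP195+TNFα, 84.2, 44, 47.1 and 27.5 CPM in TNFα, and 109, 66.4, 48.3 and 36.2 CPM in DMSO. Replicate 1 was highest and replicate 4 lowest in each. What replicate 1 had in common was not tested, and the labels give no batch.

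Set beside DMSO, TMP195+TNFα had 8 genes higher, where 13.6% of all tested genes were higher, and 2 lower, where 13.9% were. The genes that were higher were Rsad2 (1.38 ± 0.38), Isg15 (0.91 ± 0.20), Epsti1 (0.81 ± 0.12), Pml (0.70 ± 0.18), Helz2 (0.68 ± 0.16), Ifi27 (0.61 ± 0.13), Trim25 (0.55 ± 0.10) and Parp14 (0.48 ± 0.16). Those lower were Ifi27l2a (−1.29 ± 0.21) and Tor3a (−0.38 ± 0.12). With the replicate block 11 were higher (17.9% of all tested genes) and 4 lower (18.8%). In all 4 same-numbered pairs, 16 genes were higher in TMP195+TNFα than in DMSO (29.8% of all tested genes) and 9 were lower (30.2%). The Rsad2 call ended without library 1 of TMP195+TNFα (adjusted p = 0.0586), and the Parp14 call ended without library 1 or 3 of TMP195+TNFα or library 2, 3 or 4 of DMSO (adjusted p up to 0.134). The Tor3a call ended without library 2, 3 or 4 of TMP195+TNFα or library 1 or 4 of DMSO (adjusted p up to 0.108), and with the compared groups alone (0.0634). These fits with a library left out have no block and break the pairing.

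The inhibitors were also set against each other. In TMP195+TNFα, 40 of 42 genes were higher than in TPCA-1+TNFα, where 13.1% of all tested genes were higher, and 1 was lower, where 12.6% were. The widest gap was that of Ifi44, at 6.54 ± 0.61 (adjusted p = 6.58e-07), followed by Cmpk2 at 5.97 ± 0.45 and Rsad2 at 5.59 ± 0.47. Ifi27 was lower, with 26.6, 39.4, 38 and 32.6 CPM in TMP195+TNFα against the 43.4 to 51.8 CPM of TPCA-1+TNFα (−0.48 ± 0.13, adjusted p = 0.0132). That call ended without library 1 of TMP195+TNFα (adjusted p = 0.0522). These comparisons reuse the same libraries as those with TNFα alone.

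Genes of the surrounding pathway were read from 4 lists, which were also chosen with earlier results of these data known. In TPCA-1+TNFα against TNFα, all 11 Ifit and Oas genes were lower (median −4.46), led by Oasl2 (−5.78 ± 0.20) and Oas3 (−5.55 ± 0.19), and 13 of 14 tested guanylate-binding protein and IRG genes were lower (median −3.58). Of 18 tested genes for interferon receptors, JAKs, STATs, IRFs and their feedback genes, 9 were lower and 2 were higher. Over all tested genes, 9.72% were lower and 9.67% were higher in this comparison. Those that fell included the ISRE-binding factors, with Irf7 at 5.58 ± 0.97 CPM in TPCA-1+TNFα and 228 ± 37.5 CPM in TNFα (SD, n = 4 libraries each; −5.38 ± 0.25, adjusted p = 2.98e-10, edgeR). Irf9 changed by −2.49 ± 0.12 and Stat2 by −2.67 ± 0.19. The receptor gene Ifnar1 (−0.20 ± 0.13, adjusted p = 0.301) and Jak1 (−0.17 ± 0.07, adjusted p = 0.113) were not called. The interferon genes themselves were barely detected: Ifnb1 had 0 to 3 reads in TMP195+TNFα, 0 to 2 in TPCA-1+TNFα, 0 to 3 in TNFα and 0 to 1 in DMSO, and all Ifna genes together had 2 reads over the 16 libraries.

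The listed NF-kB targets were read in the same comparisons. In TNFα against DMSO, 15 of 16 listed targets were higher (median 2.04), such as Cxcl2 (5.27 ± 0.28) and Traf1 (3.08 ± 0.17), and the exception was Irf1 (0.29 ± 0.17, adjusted p = 0.245), which stands in both lists. Under the same comparison 1 of 11 Ifit and Oas genes was higher and 0 were lower. Over all tested genes, 10.9% were higher and 12.4% were lower there. With the replicate block 2 of the 11 were higher (15.1% of all tested genes) and 2 were lower (16.9%). Those lower were Ifit2 (−0.71 ± 0.22, adjusted p = 0.0242) and Ifit3b (−0.48 ± 0.15, adjusted p = 0.0237). In TPCA-1+TNFα against TNFα, 7 of the 16 targets were lower (9.72% of all tested genes) and 2 were higher (9.67%), with a median of −0.66. Sod2 (−1.74 ± 0.18) and Tnfaip3 (−1.13 ± 0.13) were lower, Traf1 (0.69 ± 0.15) was higher, and Icam1 (−0.08 ± 0.19, adjusted p = 0.784) was not called. In TPCA-1+TNFα against DMSO, 13 of the 16 targets were higher (14.8% of all tested genes) and 1 was lower (15.5%), with a median of 1.32. In TMP195+TNFα against TNFα, 1 target was lower, Ptgs2 (−1.15 ± 0.23, adjusted p = 0.00673). Among the interferon-related lists Oasl1 (1.04 ± 0.23, adjusted p = 0.0123) and Gbp8 (1.46 ± 0.35, adjusted p = 0.0173) were higher and Socs1 (−1.01 ± 0.25, adjusted p = 0.0244) was lower. Without the block, 2.95% of all tested genes were higher and 3% were lower. With the replicate block, 5 of 11 Ifit and Oas genes were higher (1 without it), with Ifit2 (1.18 ± 0.23, adjusted p = 0.00256), Ifit3 (0.72 ± 0.21, 0.035), Oas3 (0.48 ± 0.13, 0.0214) and Oasl2 (0.38 ± 0.12, 0.0425) added. It also gave 2 guanylate-binding protein and IRG genes higher (1 without it), with Ifi47 added (0.40 ± 0.13, adjusted p = 0.0462). In the list of receptors, JAKs, STATs and IRFs it gave 3 genes lower (1 without it), with Socs3 (−0.90 ± 0.26, adjusted p = 0.0283) and Jak2 (−0.31 ± 0.09, adjusted p = 0.0351) added. Among the NF-kB targets it gave 3 lower (1 without it), with Il1b (−1.10 ± 0.30, adjusted p = 0.0225) and Icam1 (−0.54 ± 0.13, adjusted p = 0.00953) added, and 1 higher (0 without it), Tnfaip3 (0.35 ± 0.11, adjusted p = 0.0407). Under the block 6.91% of all tested genes were higher and 6.56% were lower.

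Markers of other cell types were also summed in each group. The sums for plasmacytoid and conventional dendritic cells overlapped between all groups. Those for lymphocytes, stromal and endothelial cells and neutrophils differed between some groups. Few of these markers were tested: 1 plasmacytoid dendritic, 1 conventional dendritic, 2 lymphocyte, 1 stromal and endothelial and 2 neutrophil. Such sums can follow 1 or 2 genes and do not measure cell numbers. Plasmacytoid dendritic cells, which make much interferon in the body, had a 5-gene marker sum of 2.62 to 5.52 CPM in TMP195+TNFα, 1.26 to 5 CPM in TPCA-1+TNFα, 2.21 to 2.84 CPM in TNFα and 2.64 to 4.68 CPM in DMSO. Siglech and Klk1 had 0 reads in TMP195+TNFα, TPCA-1+TNFα and TNFα. The 5 markers of conventional dendritic cells summed to 0.6 to 1 CPM in TMP195+TNFα, 0.586 to 1.73 CPM in TPCA-1+TNFα, 0.343 to 0.788 CPM in TNFα and 0.345 to 0.983 CPM in DMSO, with Cd209a at 0 throughout. The 1 of them that was tested, Zbtb46, was higher in TPCA-1+TNFα than in TNFα (1.67 ± 0.46, adjusted p = 0.0178). The 7 lymphocyte markers summed to 16.9 to 26 CPM in TMP195+TNFα, 54.5 to 110 CPM in TPCA-1+TNFα, 28.1 to 52.5 CPM in TNFα and 62.9 to 111 CPM in DMSO. The 5 stromal and endothelial markers summed to 3.76 to 6.04 CPM in TMP195+TNFα, 15.6 to 40 CPM in TPCA-1+TNFα, 3.81 to 7.31 CPM in TNFα and 7.35 to 10.5 CPM in DMSO, with Col3a1 at 0 throughout. The 8 neutrophil markers summed to 81.8 to 112 CPM in TMP195+TNFα, 51.5 to 79.6 CPM in TPCA-1+TNFα, 127 to 161 CPM in TNFα and 39.2 to 77.7 CPM in DMSO, and S100a9, Ly6g, Ngp and Elane were at 0 in every group. Of the 8 macrophage markers, 4 were lower (9.72% of all tested genes) and 0 higher (9.67%) in TPCA-1+TNFα than in TNFα. Their median change was −0.66, beside −2.06 for the antiviral genes. The part of any of these in the falls under TPCA-1 was not tested.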

How the data were processed

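RNA-seq of 16 mouse macrophage libraries was used. The deposited values are whole-number read counts per gene, which the authors made with STAR 2.6.1d (builds mm10 and GRCm38 are named), per the submitters' processing notes; the annotation release is not given in the sources used here. Of 54838 identifiers, 54809 matched GENCODE M21. The strand column with nearly all counts was used, with 3.194% to 3.717% of counts on the other strand, and 4 rows that name no gene were left out of library sizes. Reads were not marked by molecular identifiers.

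Counts were tested with edgeR 4.0.16 in R 4.3.3: TMM normalization, the filterByExpr filter (12612 genes kept), the 2-sided quasi-likelihood F test on all 16 libraries with a mean per group, and Benjamini-Hochberg adjustment over all genes tested with a threshold of 0.05. CPM are counts per 1e6 TMM-scaled counted reads, and log2 fold changes are given ± SE. Alternatives were DESeq2 1.42.0 and its size factors, limma 3.58.1 (voom with quality weights), no filter, unstranded counts, the compared groups alone, a replicate block, and each library left out.

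After removal of group means, libraries with the same number correlated at 0.27 to 0.681 across the genes tested between TMP195+TNFα, TNFα and DMSO, over the minimum of 0.1, so the numbers were taken to pair these libraries, and the blocked value stands beside results it changes. With TPCA-1+TNFα the correlations were −0.043 to 0.511, and the numbers were not taken to pair. Replicates of a group differed by more than counting error (chi-square per gene of 14 to 80.3 over 24 pairs).

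The members, roles and lists were chosen with earlier results of these data known. Values of every library are given for members called with TMP195 (up to 8), the 8 most lowered and 3 most raised members called with TPCA-1, and the 4 most raised and 4 most lowered called with TNFα; each comparison list gives counts and up to 3 members. Further genes, such as Lap3, Parp10, Cmpk2 with TMP195, Isg20, Stat2, Ifnar1, Jak1, Icam1, Sod2, Traf1, Zbtb46 and the list genes that the replicate block added, were named after their values were seen. Exons of Uba7, Herc6, Sp100, Parp10, Parp14 and Rtp4 share bases with another gene on the same strand. Promoter windows are from RefSeq (GRCm38.p6). Some genes of the comparison and marker lists stay in the counts but are not reported here by name.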

Additional observations from a re-analysis of the deposited data

Results flagged for a closer look

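In 4 of the 56 groups of 4 libraries checked (14 genes in 4 groups), 1 library stood apart from the other 3 by more than Dixon's 95% criterion, which chance exceeds in about 1 in 20 groups. Mx2 had 20.5 CPM in DMSO replicate 1, against 8.32 to 9.65 CPM in the other 3 DMSO libraries. Isg15 had 49.8 CPM in TNFα replicate 2, against 77.4 to 81.3 CPM in the others. Helz2 had 62.8 CPM in TMP195+TNFα replicate 2, against 86.5 to 88.1 CPM in the others, and 39.1 CPM in DMSO replicate 3, against 53.3 to 54.8 CPM in the others.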

How the results depend on the processing

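No call changed direction in any of the 23 alternatives. In TPCA-1+TNFα against TNFα, 39 of the 41 called genes were called in every alternative, the exceptions being Daxx and Parp10, and the count of genes lower was 38 to 40. In TNFα against DMSO, the count of genes higher (4) became 7 with limma voom (16.5% of all genes tested in that fit), 9 with the replicate block (15.1%) and 2 to 7 with a library left out (8.47% to 12.8%). The count lower (2) became 1 with DESeq2 size factors (12%) and with no filter (5.75%), 4 with limma voom (18.5%) and with the replicate block (16.9%), and 1 to 2 with a library left out (9.68% to 14%). In TMP195+TNFα against TNFα, the count higher (1) became 2 with no filter, where Cmpk2 joined Rsad2 (1.37%), 3 with the replicate block (6.91%) and 0 to 2 with a library left out (1.76% to 4%), and the count lower was 0 throughout. In TMP195+TNFα against DMSO, the count lower (2) became 4 with limma voom (19.5%) and with the replicate block (18.8%), 1 with the compared groups alone (15.3%) and 1 to 3 with a library left out (11.6% to 15.6%), and the count higher (8) was 9 with DESeq2 (14.9%) and with no filter (6.23%), 11 with limma voom (19.5%) and with the replicate block (17.9%), and 6 to 10 with a library left out (10.9% to 15.1%). In TMP195+TNFα against TPCA-1+TNFα, the 1 gene lower became 0 to 1 with a library left out (9.06% to 14.9%). The cause of these shifts was not tested. In the comparisons with TPCA-1+TNFα, where the numbers were not taken to pair the libraries, the replicate block gave 40 lower (14.6% of all tested genes) and 1 higher (15.8%) against TNFα, 40 higher (18.6%) and 1 lower (18.3%) for TMP195+TNFα over TPCA-1+TNFα, and 39 lower (20.3%) and 1 higher (20.8%) for TPCA-1+TNFα over DMSO. Beyond the calls named with their blocked values, in TMP195+TNFα against DMSO the block also added Isg20 (0.66), Ifi35 (0.37), Xaf1 (0.34), Sp100 (−0.29) and Ifitm3 (−0.29). Depth limits Mx2 and Ifi44 in TPCA-1+TNFα, where library 2 held 1 and 2 of their reads.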
